A study of Rattus norvegicus with 20 samples.

Results

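The keratins Krt4, Krt5, Krt7, Krt8, Krt13, Krt15, Krt18, Krt19, Krt76 and Krt79 are intermediate filament genes of airway, mesothelial and other epithelia. These 10 genes were taken by symbol from a table of 19060 rat genes, and all 10 were present. The genes were chosen by symbol with their measured values in CLP against Sham lungs already known, so that comparison is given for them as a description, with no p-value, and nothing is read from its calls. Other earlier results of these data were known too. The p-values given for the other comparisons therefore cannot be taken as independent of the choice of genes. RNA had been sequenced from whole lung of 20 rats in 4 groups of 5: CLP+VNS, CLP, Sham+VNS and Sham. CLP is cecal ligation and puncture, which leaks gut bacteria into the abdomen and served here as a model of the acute respiratory distress syndrome. Sham rats had the abdomen opened and the cecum handled, with no ligation or puncture. VNS is vagus nerve stimulation on the right side, at the cervical level, given after CLP in the CLP+VNS group and in sham-operated rats in the Sham+VNS group. Strain, sex, age and the hour of collection were not stated in the sources used here. The 20 libraries held 13729654 to 14453188 reads assigned to genes.

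Keratin filaments are built from paired chains, 1 acidic (type I) and 1 basic (type II). Krt18, Krt19, Krt13 and Krt15 encode type I chains and Krt8, Krt7, Krt4, Krt5, Krt76 and Krt79 type II chains. Simple epithelia of the lung, among them the alveolar cells and the mesothelium, use Krt7, Krt8, Krt18 and Krt19. Krt5 marks airway basal cells, Krt15 is another basal-layer chain, and Krt4 and Krt13 pair in stratified mucosal epithelium and, in the mouse trachea, in hillock cells. Most type I genes lie in one cluster and most type II genes in another, with Krt18 lying at the end of the type II cluster beside Krt8. In the rat assembly GRCr8, Krt76, Krt4 and Krt79 are consecutive genes on chromosome 7, Krt8 and Krt18 are consecutive on the same chromosome, and Krt13, Krt15 and Krt19 are consecutive on chromosome 10.

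The upstream sequences of 4 genes are shown because the results turn on these 2 pairs of neighbours: Krt76 and Krt4 had the largest negative fold changes of the tested members in CLP against Sham, and Krt8 and Krt18 are each other's filament partner yet differed in their change. Each is the 250 bases before the start site in RefSeq's promoter table for GRCr8, given 5′ to 3′ on the gene's strand. The regions are chr7:134904163-134904412 (minus strand), chr7:134930714-134930963 (minus), chr7:135010340-135010589 (minus) and chr7:135035918-135036167 (plus). Capitals mark matches, on both strands, to TATAA (the TATA box core), TGANTCA (the AP-1 motif) and GGGCGG (the GC box).
Krt76: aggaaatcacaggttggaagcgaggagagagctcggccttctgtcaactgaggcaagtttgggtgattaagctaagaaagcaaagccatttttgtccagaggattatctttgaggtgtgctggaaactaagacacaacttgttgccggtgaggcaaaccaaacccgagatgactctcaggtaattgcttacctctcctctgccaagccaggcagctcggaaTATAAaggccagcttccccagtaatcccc
Krt4: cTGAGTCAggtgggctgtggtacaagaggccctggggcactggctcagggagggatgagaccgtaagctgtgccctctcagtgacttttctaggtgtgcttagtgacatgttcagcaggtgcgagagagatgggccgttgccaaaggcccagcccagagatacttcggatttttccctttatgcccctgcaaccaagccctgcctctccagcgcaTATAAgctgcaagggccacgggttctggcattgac
Krt8: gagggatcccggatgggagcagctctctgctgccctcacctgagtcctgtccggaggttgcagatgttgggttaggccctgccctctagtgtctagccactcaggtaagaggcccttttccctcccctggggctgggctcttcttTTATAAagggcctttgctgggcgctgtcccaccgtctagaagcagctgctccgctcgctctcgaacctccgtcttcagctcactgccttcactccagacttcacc
Krt18: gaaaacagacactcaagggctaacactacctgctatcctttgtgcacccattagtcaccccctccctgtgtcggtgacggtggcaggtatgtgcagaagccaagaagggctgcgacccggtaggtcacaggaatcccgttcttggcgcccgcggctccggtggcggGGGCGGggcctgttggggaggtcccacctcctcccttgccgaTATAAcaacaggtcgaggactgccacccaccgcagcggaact
A TATAA match began 29 bases before the start of Krt76, 35 before that of Krt4 and 42 before that of Krt18. In Krt8 a pair of overlapping matches on opposite strands began 105 and 104 bases before the start. Of all 33469 windows of this length in the table, 24.0% held TATAA. Krt4 also held TGANTCA, found in 6.34% of windows, and Krt18 held GGGCGG, found in 30.5%. A match is a run of letters and was not examined as a binding site. The table matched 6 of the 10 genes.

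Krt7, Krt19, Krt8 and Krt18 made up nearly all keratin RNA of the 10 genes, with 92.6 to 96.5% of their summed TPM in every library. TPM is a transcript level corrected for gene length and for library size, so that genes can be compared within a library. Averaged over the 20 libraries, Krt7 had 415 TPM (range 289 to 561), Krt19 369 (187 to 641), Krt8 176 (138 to 253) and Krt18 131 (69.8 to 308), and each of these ranges overlapped its neighbour's. Krt79 followed with 45 TPM (22.3 to 74.7), without reaching the range of Krt8 but overlapping that of Krt18 at its low end. Krt76 had 11.4 TPM (0.96 to 31.3), Krt15 1.65 (0 to 8.41), Krt4 1.06 (0.22 to 2.42), Krt13 0.5 (0 to 3.87) and Krt5 0.053 (0 to 0.17). The ranges of these last members overlapped from one to the next. Of the 10 genes, 8 passed the filter on low counts; Krt5 and Krt13 did not.

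**Figure D1:**
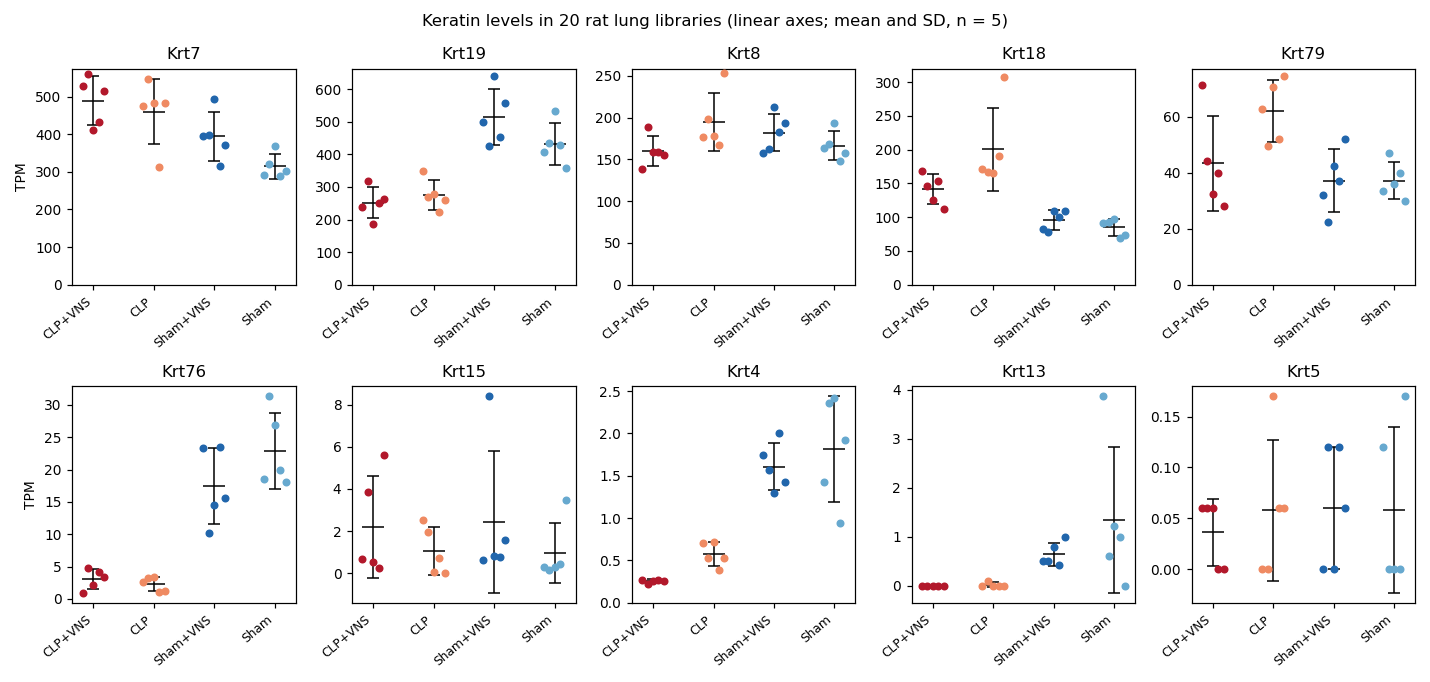
TPM of each of the 10 keratins (vertical axis, a separate linear scale per gene) in the 5 libraries of CLP+VNS, CLP, Sham+VNS and Sham rats; each point is 1 animal and the black marks are mean and SD. Krt76 and Krt4 lay lower in every CLP+VNS and CLP library than in any sham-operated one, Krt18 lay higher, and Krt15 varied from animal to animal within each group.

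Of the 8 tested members, 2 rose and 3 fell in CLP+VNS against Sham+VNS lungs, where 27.3% of all 14794 tested genes were called (13.9% higher and 13.4% lower). The genes that fell were Krt4, Krt76 and Krt19, and those that rose were Krt18 and Krt7. Krt4 passed the filter only through the sham-operated groups, where it was higher, so its part in this count is no support. The call of Krt7 was lost under 9 of 26 alternative fits. In CLP against Sham lungs 4 members were called higher and 3 lower, beside 40.3% of all tested genes (19.8% higher and 20.5% lower), a count from the comparison with which they were chosen. A call is an adjusted p below 0.05 in edgeR's quasi-likelihood test with Benjamini-Hochberg adjustment over all tested genes, and a log2 fold change is given with its SE. The members' median log2 fold change was -0.12 in CLP+VNS against Sham+VNS and 0.29 in CLP against Sham, beside -0.005 and -0.013 over all tested genes. On CPM, the read count relative to the library total with that total scaled by a TMM factor, 5 of the 10 members did not overlap between CLP+VNS and Sham+VNS (Krt4, Krt13, Krt19, Krt76 and Krt18), beside 18.9% of tested genes. Between CLP and Sham 4 did not overlap (Krt4, Krt76, Krt18 and Krt79), beside 26.1%, between CLP+VNS and CLP 1 (Krt4), beside 2.26%, and between Sham+VNS and Sham none, beside 0.798%. Krt5 and Krt13 failed the filter, so they are counted among the 10 members but not among the genes of these shares. Krt13 had no read in any CLP+VNS library. In whole lung, fewer cells of a type and less RNA per cell cannot be told apart.

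Krt18, the type I partner of Krt8, stood at 169, 146, 126, 153 and 113 TPM in CLP+VNS lungs, against 82.2, 78.1, 109.7, 99.95 and 109 TPM in Sham+VNS lungs. It stood at 172, 167, 165, 190.2 and 308 TPM in CLP lungs, against 91.2, 92.8, 97.7, 69.8 and 74 TPM in Sham lungs. In neither comparison did the groups overlap. Krt18 rose by a log2 fold change of 0.62 ± 0.18 in CLP+VNS against Sham+VNS (adjusted p = 0.0117, edgeR). Krt18 differed by 1.33 ± 0.18 in CLP against Sham, and 1.11 without CLP replicate 6, the library with 308 TPM.

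Krt8, its type II partner, differed far less. Krt8 averaged 160 ± 18.1 TPM in CLP+VNS and 182 ± 22.4 TPM in Sham+VNS lungs, and 195 ± 34.5 TPM in CLP and 166 ± 17.1 TPM in Sham lungs (SD, n = 5 each). The groups overlapped in both comparisons. The log2 fold change was -0.13 ± 0.11 in CLP+VNS against Sham+VNS (adjusted p = 0.445, edgeR). It was 0.32 ± 0.11 in CLP against Sham, and 0.20 without CLP replicate 6. In each group 1 Krt8 transcript carried 99.4 to 99.7% of the gene's TPM, so the values are those of a single annotated transcript.

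Krt19, a type I chain of ductal, airway and mesothelial epithelium, was lower after CLP while Krt18 was higher. Krt19 stood at 239, 318, 187, 251.5 and 263 TPM in CLP+VNS lungs, against 499, 426, 641, 452 and 559 TPM in Sham+VNS lungs, with no overlap. It stood at 349, 268, 278, 222 and 261 TPM in CLP lungs, against 407, 436, 534, 428 and 359 TPM in Sham lungs. On TPM these last groups too lay apart, and on TMM-scaled CPM they overlapped by 1 CLP library. Krt19 fell by 0.98 on the log2 scale in CLP+VNS against Sham+VNS (SE 0.14, adjusted p = 5.32e-05, edgeR). In CLP against Sham its log2 fold change was -0.57 ± 0.14.

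Krt7, a type II chain of simple and glandular epithelium, moved the other way. Krt7 stood at 529, 561, 410.3, 432 and 516 TPM in CLP+VNS lungs, against 396, 398.5, 493, 315 and 370.4 TPM in Sham+VNS lungs, and the groups overlapped. It stood at 476, 546, 482, 313 and 482 TPM in CLP lungs, against 290.4, 322, 370, 288.5 and 302 TPM in Sham lungs. Of the 5 CLP libraries, 4 lay above every Sham library, and CLP replicate 5 lay among the Sham libraries. Krt7 rose by a log2 fold change of 0.38 ± 0.13 in CLP+VNS against Sham+VNS (adjusted p = 0.038, edgeR). That call was lost under 9 of 26 alternatives (adjusted p 0.0136 to 0.107 over all 26), among them leaving out Sham+VNS replicate 1, 2, 4 or 5 or CLP+VNS replicate 1, 3 or 11. In CLP against Sham its log2 fold change was 0.65 ± 0.13. A pair of Krt7 transcripts carried the gene, one with 42.6 to 45.3% and the other with 53.3 to 54.4% of its TPM in every group.

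Set as ratios within each library, the summed type II members were more abundant relative to the summed type I members in CLP+VNS and CLP lungs. On average Krt7 and Krt19 were the largest terms of these sums, and the ratio of Krt8 to Krt18 went the other way. The summed TPM of the 6 type II members over that of the 4 type I members was 1.77 ± 0.138 in CLP+VNS and 1.04 ± 0.079 in Sham+VNS lungs, and 1.51 ± 0.221 in CLP and 1.05 ± 0.0759 in Sham lungs (SD, n = 5 each). The libraries did not overlap in either comparison, with 1.57 to 1.93 against 0.944 to 1.16 and 1.29 to 1.82 against 0.993 to 1.17. The summed level of all 10 genes was 1090 ± 131 TPM in CLP+VNS and 1250 ± 172 TPM in Sham+VNS lungs, and 1200 ± 157 TPM in CLP and 1060 ± 123 TPM in Sham lungs.

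The partners within the simple epithelial set differed in opposite directions. Krt8:Krt18 had a geometric mean ratio of 1.14 in CLP+VNS (0.816 to 1.38) and 1.91 in Sham+VNS lungs (1.78 to 2.08), and of 0.99 in CLP (0.821 to 1.19) and 1.96 in Sham lungs (1.79 to 2.14). The log2 ratio was lower by 0.75 in CLP+VNS than in Sham+VNS (difference -0.75, exact two-sided permutation p = 0.00794, the smallest that 5 against 5 allows; 0.0318 adjusted over 12 ratio tests). Krt7:Krt19, both prominent in the same simple epithelia, had a geometric mean ratio of 1.96 in CLP+VNS (1.72 to 2.21) and 0.766 in Sham+VNS lungs (0.662 to 0.935), and of 1.66 in CLP (1.37 to 2.03) and 0.73 in Sham lungs (0.674 to 0.842). That log2 ratio was higher by 1.36 in CLP+VNS than in Sham+VNS (exact permutation p = 0.00794, adjusted 0.0318). In CLP against Sham the log2 differences were -0.99 for Krt8:Krt18 and 1.18 for Krt7:Krt19. All 5 libraries of the CLP+VNS group lay on one side of all 5 of the Sham+VNS group for each ratio. The ratios of Krt4 to Krt13 and of Krt5 to Krt15 have a member near 0 and depend on the constant added to each value, so they are not read.

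**Figure D2:**
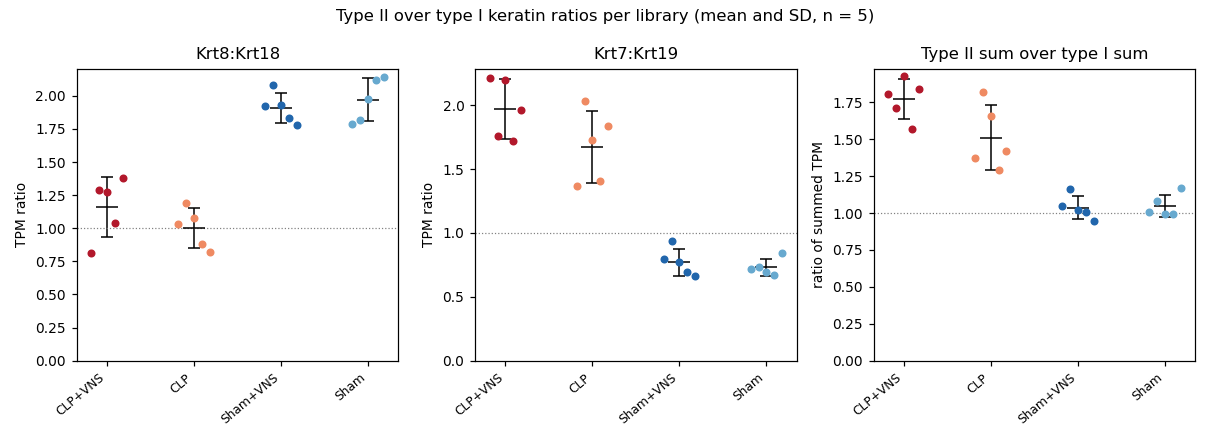
TPM ratio of Krt8 to Krt18 (left) and of Krt7 to Krt19 (middle), and summed TPM of the 6 type II over the 4 type I members (right), each on a linear axis from 0; points are libraries of CLP+VNS, CLP, Sham+VNS and Sham rats, black marks the mean and SD, and the dotted line a ratio of 1. The Krt8 to Krt18 ratio lay between 0.816 and 1.38 in CLP+VNS and CLP lungs and between 1.78 and 2.14 in all sham-operated lungs, and the Krt7 to Krt19 ratio was above 1 in the first 2 groups and below 1 in the others.

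Krt76, a type II chain of the palate and other oral epithelium, had the largest negative fold change of the tested members in CLP against Sham. Krt76 stood at 0.96, 4.85, 2.12, 4.23 and 3.42 TPM in CLP+VNS lungs, against 23.4, 10.2, 14.5, 23.45 and 15.5 TPM in Sham+VNS lungs. It stood at 2.6, 3.24, 3.47, 1.03 and 1.22 TPM in CLP lungs, against 18.5, 31.3, 26.8, 19.9 and 18.1 TPM in Sham lungs. The highest CLP+VNS or CLP library had 4.85 TPM and the lowest sham-operated one 10.2 TPM. Krt76 fell by 2.45 on the log2 scale in CLP+VNS against Sham+VNS (SE 0.36, adjusted p = 5.25e-05, edgeR). Its log2 fold change in CLP against Sham was -3.22 ± 0.37. Of its pair of annotated transcripts, one held 69.4 to 82.5% of the TPM in every group.

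Krt4, the type II chain of stratified mucosal epithelium and the next gene to Krt76, was scarcer and also lower after CLP. Krt4 stood at 0.27, 0.22, 0.26, 0.27 and 0.26 TPM in CLP+VNS lungs, against 1.74, 1.57, 1.3, 2 and 1.42 TPM in Sham+VNS lungs. It stood at 0.7, 0.53, 0.72, 0.38 and 0.53 TPM in CLP lungs, against 1.43, 2.36, 2.42, 0.94 and 1.92 TPM in Sham lungs. The groups did not overlap in either comparison. Krt4 fell by 2.79 on the log2 scale in CLP+VNS against Sham+VNS (SE 0.29, adjusted p = 1.36e-06, edgeR). Its value in CLP against Sham was -1.74 ± 0.26. These values rest on few reads, 19 summed over the CLP+VNS group, 42 over CLP, 139 over Sham+VNS and 145 over Sham. No CLP+VNS or CLP library reached the 0.713 CPM that the filter asks for, so Krt4 was tested only through its level in the sham-operated groups, and its call is no support by itself.

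Krt13, the type I partner of Krt4, failed the count filter and was close to or at 0 after CLP. No read was counted in any CLP+VNS library, against 5, 5, 8, 4 and 10 reads in the Sham+VNS libraries. With a floor of 3 reads over a group at 0, Krt13 was at least 10.4-fold lower in CLP+VNS than in Sham+VNS lungs (exact two-sided permutation p on CPM = 0.00794, the smallest possible; 1 of 6 such tests on Krt5 and Krt13). In CLP lungs 1 read was counted, in replicate 3, against 37, 6, 12, 10 and 0 reads in Sham lungs. Relative to the TMM-scaled library totals, the ratio of summed counts in CLP over Sham was 0.0158 (95% Clopper-Pearson interval 0.000393 to 0.091), and 0.0293 (0.000716 to 0.177) without Sham replicate 1. Intervals and floors cover counting error only. Sham replicate 1, which held 37 of the 65 Sham reads, also had the highest summed marker CPM of its group for adipose tissue (1930, against a median of 156), heart (186, against 17.1) and mesothelium (1910, against 677), and their part in the Krt13 value was not tested.

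**Figure D3:**
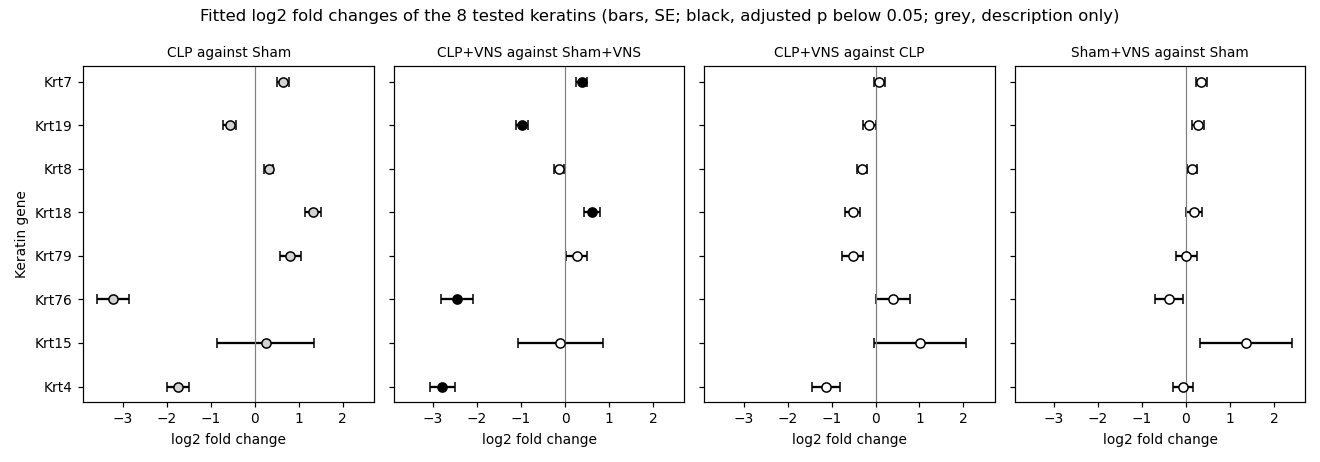
Log2 fold change (horizontal axis) and SE of the 8 tested keratins in CLP against Sham, CLP+VNS against Sham+VNS, CLP+VNS against CLP and Sham+VNS against Sham; black points passed adjusted p below 0.05 in the fit across all genes, and the grey points of the first panel are a description with no call. Krt76, Krt4 and Krt19 lie left of 0 and Krt18 and Krt7 right of 0 in the first 2 panels, and no point is black in the last 2.

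Krt5, the type II chain that defines airway basal cells, was at the limit of detection. Its reads summed to 3 in CLP+VNS and 5 in Sham+VNS, and to 5 in CLP and 5 in Sham. Tp63, the basal cell transcription factor, averaged 0.217 CPM in CLP+VNS and 0.534 CPM in Sham+VNS lungs, and 0.263 CPM in CLP and 0.593 CPM in Sham lungs, and also failed the filter. Of the 6 basal cell markers that passed it, 1 rose (Aqp3, a glycerol and water channel, log2 fold change 3.28 ± 1.16, adjusted p = 0.0435) and 1 fell (Bcam, a laminin receptor, -0.62 ± 0.08, adjusted p = 7.56e-06) in CLP+VNS against Sham+VNS. Aqp3 passed the filter only through the CLP+VNS and CLP groups, where it was higher, so its call is no support by itself. The Aqp3 value rests on few libraries: CLP+VNS replicate 5 had 45.5 CPM and the next of its group 10.9, while Sham+VNS replicate 5 had 5.49 CPM and the next of its group 0.617. Without CLP+VNS replicate 5 it was 1.74 (adjusted p = 0.264) and without Sham+VNS replicate 5 it was 5.64 (0.00666), and the call was also lost without CLP+VNS replicate 3 or Sham+VNS replicate 1, 2, 3 or 4. Of these 6, 1 was called higher and 3 lower in CLP against Sham. Of all tested genes, 40.3% were called in CLP against Sham and 27.3% in CLP+VNS against Sham+VNS. No group difference in Krt5 was detectable at this depth (exact permutation p = 0.683 in CLP+VNS against Sham+VNS).

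Krt15, a type I chain of basal layers, varied by animal in every group. It stood at 0.67, 3.84, 0.51, 0.22 and 5.64 TPM in CLP+VNS lungs, against 0.6, 8.41, 0.8, 0.77 and 1.55 TPM in Sham+VNS lungs. It stood at 2.53, 1.94, 0.07, 0.73 and 0 TPM in CLP lungs, against 0.31, 0.15, 0.3, 0.45 and 3.49 TPM in Sham lungs. Within a group 1 or 2 animals carried most of the signal. Its coefficient of variation was 110% in CLP+VNS and 137% in Sham+VNS, and 106% in CLP and 151% in Sham, whereas that of Krt8 was 9.63 to 18.9%. The log2 fold change was -0.11 ± 0.97 in CLP+VNS against Sham+VNS (adjusted p = 0.953, edgeR) and changed sign with the library left out, between -0.83 and 1.24.

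Krt79, a type II chain of the hair follicle and sebaceous duct in the mouse whose transcript is also found in mouse alveolar macrophages, was the fifth most abundant member. Krt79 averaged 43.4 ± 17 TPM in CLP+VNS and 37.2 ± 11.2 TPM in Sham+VNS lungs (SD, n = 5 each), and these groups overlapped. It averaged 62 ± 11 TPM in CLP and 37.2 ± 6.62 TPM in Sham lungs, with every CLP library above every Sham library. The log2 fold change was 0.27 ± 0.24 in CLP+VNS against Sham+VNS (adjusted p = 0.437, edgeR) and 0.81 ± 0.24 in CLP against Sham. CLP+VNS replicate 1, at 71.6 TPM, lay above the other 4 animals of its group, which ran from 28.2 to 44.4 TPM. Krt79 thus lay higher in CLP against Sham while its neighbours Krt76 and Krt4 lay lower. Of 10 tested alveolar macrophage markers, 6 were called higher and none lower in CLP against Sham, and 4 higher and none lower in CLP+VNS against Sham+VNS, led in both by Chi3l1, a chitinase-like protein (1.04 ± 0.25, adjusted p = 0.00431 in CLP+VNS against Sham+VNS). The summed marker level was 852 to 1510 CPM in CLP+VNS and 688 to 819 CPM in Sham+VNS, and 1210 to 1570 CPM in CLP and 610 to 1330 CPM in Sham lungs. Without Sham replicate 1 the Sham libraries ran from 610 to 813 CPM; that library had 698 CPM of Fabp4, which the adipose list also holds. Of all tested genes, 19.8% were called higher in CLP against Sham and 13.9% in CLP+VNS against Sham+VNS. The macrophage list's defining markers Marco and Pparg were not called in either comparison. The part of these markers in the Krt79 value was not tested.

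Stimulation was compared within operated and within sham-operated animals. None of the 8 tested members was called in CLP+VNS against CLP, where 4 of 14794 genes (0.027%) were called, all lower. None was called in Sham+VNS against Sham or in the interaction, the difference between these 2 effects of stimulation, where 0% of genes were called. By unadjusted p below 0.05, 4 members and 1927 genes passed in CLP+VNS against CLP, 1 member and 1185 genes in Sham+VNS against Sham, and 3 members and 1217 genes in the interaction. DESeq2 called 138, 6 and 6 genes in these comparisons and no member. The count of 4 genes became 277 without CLP+VNS replicate 1. It became 2 without Sham replicate 4, 1 without Sham replicate 1, CLP+VNS replicate 11 or CLP replicate 3, and 0 without Sham replicate 5, Sham+VNS replicate 1 or 3, CLP+VNS replicate 3, 5 or 8 or CLP replicate 4, 5 or 6. No member was called in any of these fits.

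The member furthest apart between CLP+VNS and CLP lungs was Krt4. Its 5 CLP+VNS libraries, at 0.216 to 0.356 CPM, lay below the 5 CLP libraries, at 0.366 to 0.724 CPM, a lack of overlap found for 2.26% of tested genes. The log2 fold change was -1.12 ± 0.32 (adjusted p = 0.187, edgeR) and rests on 3 to 5 reads in each CLP+VNS library and 5 to 10 in each CLP library. Krt18 had -0.52 ± 0.17 (adjusted p = 0.219), Krt8 -0.30 ± 0.11 (0.275), Krt79 -0.52 ± 0.24 (0.358) and Krt19 -0.14 ± 0.14 (0.704). Krt7 had 0.09 ± 0.13 (0.827), Krt76 0.40 ± 0.39 (0.707) and Krt15 1.01 ± 1.04 (0.72). The Krt8:Krt18 log2 ratio differed by 0.20 between CLP+VNS and CLP (exact permutation p = 0.246, 0.59 adjusted over 12 ratio tests). Without CLP+VNS replicate 1 that ratio differed by 0.32 (exact permutation p = 0.0476, not adjusted), the only 1 of 12 alternatives below 0.05. Krt7:Krt19 differed by 0.24 (exact permutation p = 0.119).

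In Sham+VNS against Sham, Krt7 had a log2 fold change of 0.35 ± 0.13 (adjusted p = 0.589, edgeR) and Krt19 0.27 ± 0.14 (0.657). Krt8 had 0.14 ± 0.11 (0.761), Krt18 0.19 ± 0.18 (0.802), Krt4 -0.07 ± 0.23 (0.955), Krt76 -0.38 ± 0.32 (0.776), Krt15 1.36 ± 1.05 (0.755) and Krt79 0.01 ± 0.24 (0.995). The Krt8:Krt18 log2 ratio differed by -0.04 (exact permutation p = 0.508) and Krt7:Krt19 by 0.07 (p = 0.516). In the interaction Krt4 had -1.05 ± 0.40 (adjusted p = 0.535), Krt18 -0.71 ± 0.25 (0.514), Krt8 -0.45 ± 0.16 (0.516) and Krt76 0.77 ± 0.50 (0.723). Krt7 had -0.27 ± 0.19 (0.744), Krt19 -0.41 ± 0.20 (0.613), Krt79 -0.54 ± 0.34 (0.708) and Krt15 -0.36 ± 1.48 (0.976). The comparisons of CLP+VNS with CLP and of CLP with Sham share the CLP libraries, so their values are not independent.

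Members were also compared by how libraries of 1 group differed among themselves. Over the 20 libraries, with each library taken as its deviation from its group mean, Krt8 and Krt18 had a Pearson correlation of 0.72, Krt7 and Krt19 of 0.68, Krt18 and Krt79 of 0.66, and Krt4 and Krt76 of 0.63. Krt15 had -0.60 with Krt18 and -0.54 with Krt79. Krt7 and Krt19 thus varied together within groups although their levels over all libraries had a correlation of -0.37. The levels of Krt4 and Krt76 had a correlation of 0.89, of Krt18 and Krt79 of 0.79 and of Krt8 and Krt18 of 0.62. These values are descriptions over libraries that share group membership, without p-values.

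**Figure D4:**
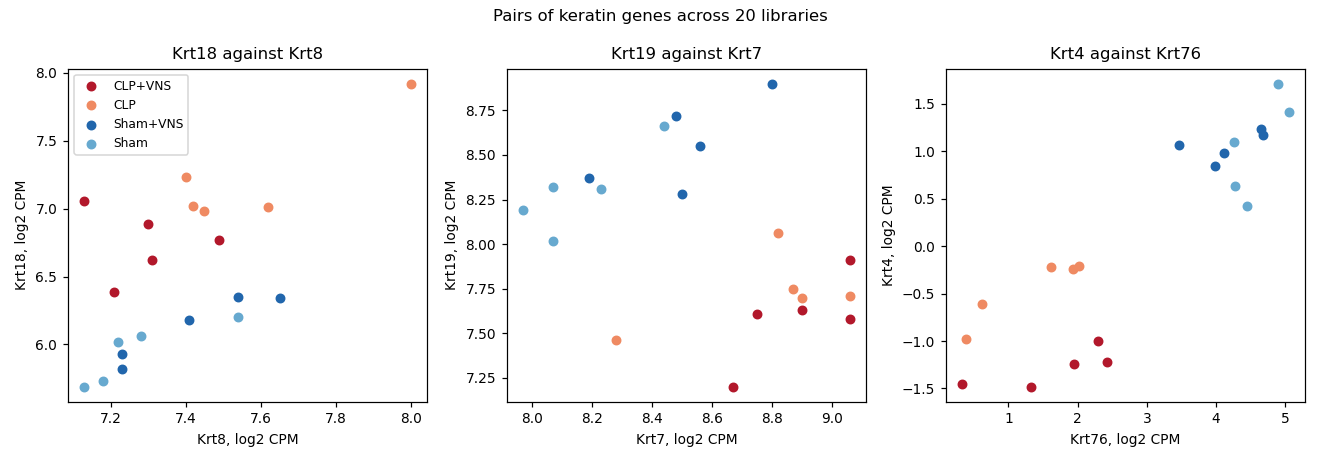
Log2 CPM of Krt18 against Krt8 (left), Krt19 against Krt7 (middle) and Krt4 against Krt76 (right) in 20 libraries coloured by group (CLP+VNS, CLP, Sham+VNS, Sham). All CLP+VNS and CLP libraries lie above all sham-operated ones in Krt18, across an overlapping range of Krt8, and below them in Krt4; in Krt19 they lie below, except that CLP replicate 1 lies just above the lowest Sham library.

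The genes whose levels were most like each member were also ranked over the 20 libraries. For Krt76 they were Atp2b4, a plasma membrane calcium pump (r = 0.98), Kank4 (0.98) and Fgfr4 (0.97). For Krt4 the first was Bcam (0.96), for Krt18 Sdc4, a cell-surface heparan sulphate proteoglycan (0.93), and for Krt19 Myl12b, a myosin light chain (0.93). A correlation of levels includes the differences between groups. By deviation from the group mean other genes came first, Chst15 for Krt76 (0.88) and Jade2 for Krt4 (0.85). Likewise Tchh came first for Krt18 (0.90) and S100a6 for Krt19 (0.85). Krt7 was most like Kcnk1, a potassium channel, by level (0.96), and Myh14, a myosin heavy chain, by deviation from the group mean (0.89). Krt79 was most like Edil3 (0.96), the lysosomal protease Ctsd (0.94) and Bhlhe41, a transcription factor of mouse alveolar macrophages (0.92), with 0.93 for Edil3 and 0.90 for Ctsd by deviation. For Krt8 the highest level correlation was only 0.75, with Trim47, and by deviation Krt18 (0.72) came after Star and Elovl7 (0.75 each).

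Of 26 other keratin genes in the table, 10 passed the filter. In CLP+VNS against Sham+VNS 5 of them rose and 1 fell (median log2 fold change 0.64), and in CLP against Sham 5 were called higher and 2 lower (median 0.74). Of all tested genes, 27.3% were called in the first of these comparisons and 40.3% in the second. The genes that rose include Krt16 and Krt81, which passed the filter only through the groups where they were higher. These counts and medians are therefore no support by themselves. Krt80, a type II chain of differentiating epithelium and the neighbour of Krt7, rose by 1.33 ± 0.21 in CLP+VNS against Sham+VNS (adjusted p = 9.4e-05, edgeR). It averaged 43.5 ± 5.46 CPM in CLP+VNS and 17.2 ± 5.59 CPM in Sham+VNS lungs, and 44.8 ± 5.14 CPM in CLP and 11.5 ± 3.44 CPM in Sham lungs (SD, n = 5 each). Krt16, a type I chain induced in injured and hyperproliferative epidermis, rose by 4.19 ± 0.59 (adjusted p = 3.56e-05). Its CPM was 3.23 to 9.44 in CLP+VNS and 0 to 0.633 in Sham+VNS lungs, and 2.14 to 9.52 in CLP and 0.0699 to 0.633 in Sham lungs. Krt16 passed the filter only through the CLP+VNS and CLP groups. Its estimated counts were fractional in every CLP+VNS and CLP library and whole in every sham-operated one. Whether reads were divided between Krt16 and similar genes was not tested. Krt81, a hair keratin, rose by 4.10 ± 0.77 (adjusted p = 0.000568), and by 3.21 (0.00132) without CLP+VNS replicate 1, which had 5.22 CPM while the next library of its group had 1.29. Krt81 too passed the filter only through the CLP+VNS and CLP groups, and reads of near-identical hair keratins such as Krt86 could have been divided between genes.

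Krt23, a type I chain, rose by 0.75 ± 0.22 (adjusted p = 0.0161, edgeR) in CLP+VNS against Sham+VNS, and Krt75 by 0.84 ± 0.29 (0.0368). Krt10, a type I chain of cornifying epidermis, fell by 0.63 (SE 0.21, adjusted p = 0.0283). The call of Krt23 was lost without CLP+VNS replicate 1 (adjusted p = 0.0587). That of Krt75 was lost without CLP+VNS replicate 3, 8 or 11 or Sham+VNS replicate 1, 3 or 4 (adjusted p up to 0.0991), and that of Krt10 without CLP+VNS replicate 1, 3 or 11 or Sham+VNS replicate 2, 3, 4 or 5 (up to 0.071). Krt78 had -0.70 ± 0.27 (0.0632), Krt2 0.34 ± 0.36 (0.534), Krt1 0.20 ± 0.29 (0.668) and Krt77 0.53 ± 0.57 (0.54). Krt14, the basal type I partner of Krt5, failed the filter and was high in a single library: 18 CPM in Sham replicate 1, whereas its highest value was 0.502 CPM in CLP+VNS, 0.439 in CLP and 1.18 in Sham+VNS.

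**Figure D5:**
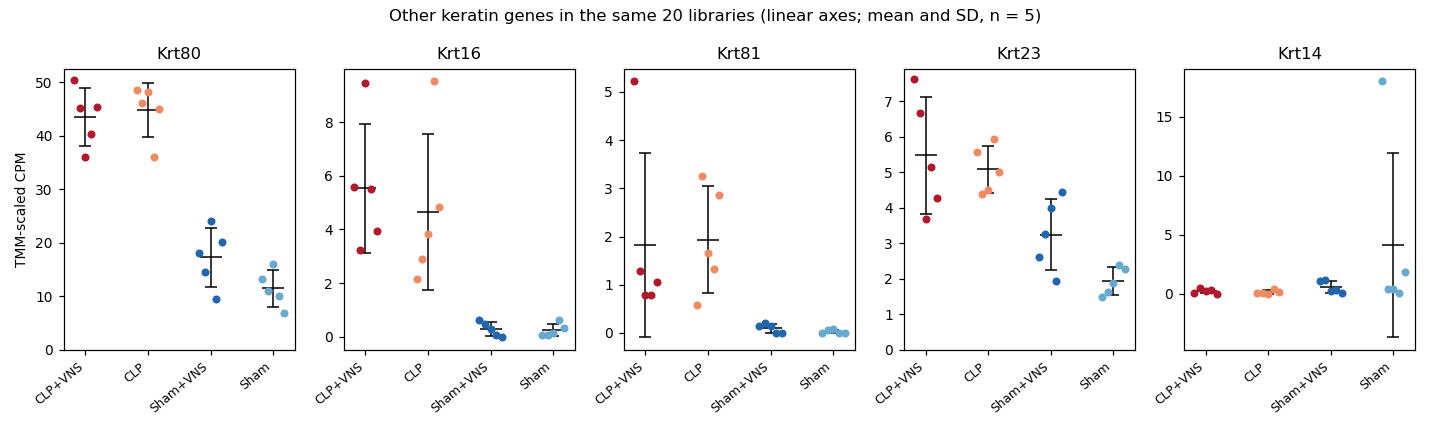
TMM-scaled CPM (vertical axes, linear, one scale per gene) of Krt80, Krt16, Krt81, Krt23 and Krt14 in CLP+VNS, CLP, Sham+VNS and Sham libraries; points are animals and black marks mean and SD. Krt80 and Krt16 lay higher in every CLP+VNS and CLP library than in any sham-operated one, and the high Krt14 point is Sham replicate 1.

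A list of filament partner and desmosome genes, which also holds other intermediate filament genes such as Vim, had changes in both directions. Of 22 tested filament partners and desmosome genes, 3 rose and 6 fell in CLP+VNS against Sham+VNS (median log2 fold change -0.09), and 4 were called higher and 7 lower in CLP against Sham (median -0.10). Of all tested genes, 40.3% were called in CLP against Sham and 27.3% in CLP+VNS against Sham+VNS (13.9% higher and 13.4% lower). Evpl, the plakin envoplakin, fell by 0.74 (SE 0.10, adjusted p = 3.15e-05, edgeR), and Dsg2, a desmosomal cadherin, by 0.55 (SE 0.17, adjusted p = 0.0202). Vim, the mesenchymal intermediate filament, rose by 0.46 ± 0.10 (adjusted p = 0.00236). Of 16 tested epithelial identity genes and regulators, 2 rose and 2 fell in CLP+VNS against Sham+VNS, beside the same 27.3% of all tested genes. Klf4 and Klf5, epithelial transcription factors, rose by 0.67 ± 0.12 (adjusted p = 0.000279) and 0.47 ± 0.07 (9.4e-05), and Esr1, the oestrogen receptor, fell by 1.43 (SE 0.52, adjusted p = 0.0474). Esr1 reached the 0.713 CPM of the filter in every sham-operated library, in 3 CLP+VNS libraries and in no CLP library. It thus passed the filter only through the sham-operated groups. The Esr1 call was lost without CLP+VNS replicate 1, 5, 8 or 11 or Sham+VNS replicate 2, 4 or 5 (adjusted p up to 0.139). The other gene of this list that fell was Nkx2-1 (-0.33 ± 0.07, adjusted p = 0.00218, edgeR). The pan-epithelial genes Epcam (-0.09 ± 0.08, adjusted p = 0.428) and Cdh1 (-0.08 ± 0.08, 0.502) were not called.

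Markers of the cells that carry these keratins were counted by type. Of all tested genes, 13.9% rose and 13.4% fell in CLP+VNS against Sham+VNS. The secretory marker Scgb1a1, at 6540 CPM in CLP+VNS and 6040 CPM in Sham+VNS lungs, and 4990 CPM in CLP and 4770 CPM in Sham lungs, was present in every group and was not called. Of the secretory list 0 of 9 tested genes rose and 2 fell in CLP+VNS against Sham+VNS, and of the ciliated list 0 of 12 rose and 1 fell. Of the mesothelium list 0 of 11 rose and 6 fell (median -1), led by Gpm6a, a membrane glycoprotein (-2.78 ± 0.44, adjusted p = 0.000136, edgeR), while the defining markers Msln (0.59 ± 0.38, 0.28) and Upk3b (-0.54 ± 0.35, 0.273) were not called. The summed mesothelium markers were 164 to 424 CPM in CLP+VNS and 354 to 662 CPM in Sham+VNS, and 502 to 818 CPM in CLP and 305 to 1910 CPM in Sham lungs. Of the alveolar type 1 list 0 of 12 rose and 9 fell (median -0.61), among them the water channel Aqp5 (-2.01 ± 0.21, adjusted p = 2e-06). Of the alveolar type 2 list 1 of 12 rose, Sftpb, a surfactant protein (0.49 ± 0.15, adjusted p = 0.0198, and 0.0605 without Sham+VNS replicate 4), and none fell. The part of these cell types in the fall of Krt19, Krt4 and Krt76 was not tested.

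A set of genes that in mouse mark a Krt8-high transitional alveolar state was split. Of 16 tested, 5 rose and 2 fell in CLP+VNS against Sham+VNS (median -0.02), and 7 were called higher and 3 lower in CLP against Sham (median 0.26). Of all tested genes, 19.8% were called higher and 20.5% lower in CLP against Sham. In CLP+VNS against Sham+VNS these shares were 13.9% and 13.4%. The cell-cycle inhibitor Cdkn1a rose by 2.10 ± 0.16 (adjusted p = 8.32e-08, edgeR) and the urokinase receptor Plaur by 1.37 ± 0.17 (7.4e-06), whereas the integrin subunit Itgb6 fell by 1.38 (SE 0.24, adjusted p = 0.000342). Of 7 tested squamous and hillock markers, 2 rose (Serpinb2, a serpin, 4.86 ± 1.41, adjusted p = 0.0143, and Ecm1, an extracellular matrix protein, 0.32 ± 0.08, 0.00361) and 1 fell (Calml3, -1.02 ± 0.36, 0.0413). Serpinb2 passed the filter only through the CLP+VNS and CLP groups, and had 5.41 CPM in CLP+VNS replicate 8 while the next library of its group had 0.574. Without that replicate its value was 3.28 (adjusted p = 0.0831). The Calml3 call was lost without CLP+VNS replicate 1, 5, 8 or 11 or Sham+VNS replicate 1, 2, 4 or 5 (adjusted p up to 0.098). No gene of any of these lists was called in CLP+VNS against CLP or in Sham+VNS against Sham. In CLP against Sham the adipose list had 3 of 6 and the heart list 4 of 5 tested genes lower, a difference to which Sham replicate 1 contributed the highest values, and in CLP+VNS against Sham+VNS neither list had a call. Of 4 tested skeletal muscle genes, 1 rose (Ttn) and 1 fell (Mybpc1) in CLP+VNS against Sham+VNS. Mybpc1 passed the filter only through the sham-operated groups, so its call is no support by itself. The Ttn call was lost in 7 of 10 fits with a library left out.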

How the data were processed

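Lung RNA of 20 rats, 5 per group, was sequenced, 1 library per animal; groups and replicate numbers come from the labels. Per the labels' protocols, the libraries were made from poly(A)-selected, strand-marked cDNA. The authors deposited FPKM and TPM values per gene and transcript, estimated counts (expected counts) of reads, not scaled between libraries (91.5% whole), and a normalized signal (not used here), per the file headers. Reads were processed against mRatBN7.2, per the submitters' processing notes; the aligner, the counter, the annotation release and the handling of reads from similar keratin genes were not given in the sources used here.

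Counts were rounded and tested in R 4.3.3 with edgeR 4.0.16 (filterByExpr minimum count 10, TMM, 4 group means on 20 libraries, robust quasi-likelihood F test, two-sided). The filter left 14794 genes, with 16 residual degrees of freedom and a common biological coefficient of variation of 0.161. The step was tested on simulated data. Ratios of TPM used an exact permutation test over libraries. DESeq2 1.42.0, other scalings, no filter, fits of the compared groups alone, a replicate block and left-out libraries were alternatives. Of 19060 gene identifiers, 18800 matched the GRCr8 table, used for gene order and promoters. The labels do not say whether equal replicate numbers pair animals, and they name no batch.

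The keratins and the 14 marker lists were chosen with earlier results of these data known. All 10 keratins are named in every group. Of each list, up to 3 called genes with the largest absolute fold change and the first 2 markers could be named. Of the other keratins, those with a mean of at least 0.5 CPM could be named. Of similar genes, the 3 with the highest correlation for each tested keratin could be named. Nkx2-1 is named beyond this rule.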

Additional observations from a re-analysis of the deposited data

Results flagged for a closer look

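A library was looked for that stood apart from the other 4 of its group, by the gap to its nearest neighbour over the whole range of log2 CPM. Of 40 combinations of keratin and group, 3 had one. Chance gives about 1 in 20 for continuously varying values, a rate that does not cover counts near 0 such as those of Krt13 and Krt5. Krt13 in CLP+VNS, with no read in any library, is among the 40 but could have none. Krt13 had 0.0706 CPM in CLP replicate 3, a single read, whereas the other CLP libraries had 0. Krt15 had 3.18 CPM in Sham replicate 5, whereas the other Sham libraries had 0.14 to 0.422 CPM. Krt18 had 243 CPM in CLP replicate 6, whereas the other CLP libraries had 126 to 150 CPM; without it, the log2 fold change of Krt18 was 1.11 in CLP against Sham, where it was 1.33 with all libraries, and -0.30 in CLP+VNS against CLP, where it was -0.52.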

How the results depend on the processing

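No fold change or ratio reversed a call: outside CLP against Sham, of 931 such values under an alternative, 916 kept their side of the threshold, 10 fell short of it (9 of them Krt7), 3 passed it newly and 2 had no adjusted p in DESeq2. Values of the stimulation comparisons and of the interaction had no call to lose, and a changed sign without a call counted as kept. The 916 is thus no measure of how many calls held. The keratin calls in CLP+VNS against Sham+VNS numbered 4 to 6 (4 to 5 with a library left out) and 0 in both comparisons of stimulation and in the interaction. Krt4 failed the filter in the fit of the CLP+VNS and CLP groups alone. With no filter on low counts, Krt13 was also called lower in CLP+VNS against Sham+VNS. Scaling by total counts alone turned the split of calls to 1698 higher and 2401 lower in CLP+VNS against Sham+VNS (2060 and 1984 with TMM), and to 2347 and 3756 in CLP against Sham (2926 and 3029).

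For all genes, the 4 calls in CLP+VNS against CLP became 0 by total counts alone, with the replicate block and with only the groups compared, and 138 in DESeq2, with 0 to 277 on leaving out a library. Sham+VNS against Sham had 1 call with only the groups compared, 6 in DESeq2 and 0 to 2 on leaving out a library; the interaction had 6 in DESeq2 and 0 to 3. The cause was not tested. With the replicate block, calls in CLP+VNS against Sham+VNS numbered 2110 (4044 without it), and Krt7 there (adjusted p = 0.0505 in edgeR) lost its call. Libraries of equal number had deviations correlated at -0.143 to 0.178. Libraries of unequal number were not set beside them, so whether equal numbers pair animals cannot be decided from these values. Few reads limit Krt4, Krt5, Krt13 and Krt15.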
